A study of Mus musculus with 12 samples.

Results

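The effect of curcumin in LPS-stimulated cells was compared with its effect in resting cells, gene by gene, in BV-2, a cell line that grows without limit and was derived from mouse microglia, the macrophages that live in the brain. The quantity described is the interaction, the log2 change from LPS to LPS+curcumin minus the log2 change from untreated to curcumin, and it uses all 12 of the 12 arrays of the study. The groups, of 3 one-colour Agilent arrays each, are untreated BV-2 cultures and cultures given curcumin at 20 µM, LPS at 100 ng/ml, or both agents at those doses. Treatment lasted 6 h, and the labels name neither a vehicle nor a time for the untreated cells. All groups are the same line with no genetic change named, and nothing in the labels says whether the replicates came from separate cultures. The p-values therefore measure the spread between these arrays, which may be technical. Of 19319 genes and transcripts tested, 15654 (81.0%) were well above background on all 12 arrays and are called measured here, 1216 were not above background on any array of at least 1 group, and 2449 lay between. A spot left out as an outlier counted as not above background, so some of the 2449 are not dim, such as Ddit3. For the 1216 genes the interaction is fitted against background, so they are described here by their levels. Of 11 markers of microglia and macrophages, 10 are on the array, and 10, 10, 10 and 9 of them were above background on all arrays of the untreated, curcumin, LPS and LPS+curcumin groups. Between 0 and 6 of the 9 or 10 markers on the array of neurons, astrocytes, oligodendrocytes, endothelial cells, lymphocytes or fibroblasts were above background on all 3 arrays of a group, and the interaction of none of those tested was called.

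LPS, a component of the outer membrane of Gram-negative bacteria, is sensed by Toll-like receptor 4. Its adaptor MyD88 leads to NF-kB and the early cytokine genes, and its adaptor TRIF leads to the transcription factor IRF3, interferon beta and, through the interferon receptor, the interferon-stimulated genes. Curcumin, a polyphenol of turmeric, is known to activate the antioxidant factor NRF2 and to dampen inflammatory gene expression in macrophages. An interaction of 0 means that curcumin multiplied the signal of a gene by the same factor with and without LPS. A value below 0 means that curcumin lowered the gene more, or raised it less, when LPS was present, and the same number states how much smaller the effect of LPS was when curcumin was present.

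The genes with the lowest interactions included several that interferon induces, and the promoters of those that held a match to a motif of that pathway or of NF-kB are printed to show where the matches lie. The windows cover the stretch upstream of the start of the gene and its first 50 bases (RefSeq, GRCm38.p6), and entries were found for 10 of the 13 measured genes that make up the 10 lowest interactions of either fit. Zbp1, Batf2 and Wnt10a had no entry. The motifs searched on both strands were GAAA, any 2 bases and GAAA, the core of the interferon-stimulated response element, GGG, any 2 bases and TTTCC, an NF-kB site, and TGACNNNGC, the core of the antioxidant element. In the sequences below capitals mark matches. Gbp5 lies at chr3:142496684-142496983 on the plus strand, Gbp2 at chr3:142620413-142620712 on the plus strand, Apol9b at chr15:77728822-77729121 on the plus strand and Saa3 at chr7:46715627-46715926 on the minus strand.
Gbp5: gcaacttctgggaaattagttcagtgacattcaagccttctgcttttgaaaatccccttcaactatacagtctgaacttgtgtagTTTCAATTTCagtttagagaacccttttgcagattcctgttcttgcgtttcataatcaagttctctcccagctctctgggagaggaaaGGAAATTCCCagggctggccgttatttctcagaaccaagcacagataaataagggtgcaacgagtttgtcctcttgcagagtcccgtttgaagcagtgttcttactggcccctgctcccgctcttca
Gbp2: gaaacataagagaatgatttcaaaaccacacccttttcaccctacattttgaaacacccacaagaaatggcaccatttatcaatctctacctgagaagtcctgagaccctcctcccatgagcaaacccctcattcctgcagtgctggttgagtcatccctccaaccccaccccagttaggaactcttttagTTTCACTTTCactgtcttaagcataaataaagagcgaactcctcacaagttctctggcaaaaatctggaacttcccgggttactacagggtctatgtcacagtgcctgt
Apol9b: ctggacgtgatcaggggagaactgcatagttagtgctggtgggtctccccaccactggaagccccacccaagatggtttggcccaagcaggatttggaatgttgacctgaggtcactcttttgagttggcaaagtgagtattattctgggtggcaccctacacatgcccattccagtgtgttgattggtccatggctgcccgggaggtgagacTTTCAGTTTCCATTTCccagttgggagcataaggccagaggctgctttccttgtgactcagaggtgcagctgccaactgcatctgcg
Saa3: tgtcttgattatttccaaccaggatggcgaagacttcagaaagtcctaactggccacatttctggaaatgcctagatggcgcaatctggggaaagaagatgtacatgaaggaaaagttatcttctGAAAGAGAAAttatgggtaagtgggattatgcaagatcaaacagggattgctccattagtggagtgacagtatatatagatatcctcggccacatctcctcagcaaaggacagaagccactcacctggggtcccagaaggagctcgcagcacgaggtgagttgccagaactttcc
The interferon element matched in these 4 of the 10 promoters, and it is held by 3.443% of the 32851 promoters of the same length. In Apol9b it matched at 2 overlapping places. The NF-kB site matched in 1 of the 10, Gbp5, and in 1.629% of all promoters, and the antioxidant core in 0 of the 10 and in 12.392% of all. A match is a description of these letters and no evidence that a factor binds there.

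On each array 58.0% to 65.9% of spots were well above background and the signal had a 75th percentile of 304 to 979. Relative to spike-in control probes this percentile was -1.26 to -0.94 (log2) untreated and -2.32 to -2.01 with curcumin. It was -1.44 to -1.17 with LPS and -2.58 to -1.33 with both. The size and direction of a curcumin effect therefore depend on the scale, and effects below are relative to the 75th percentile. LPS+curcumin replicate 1 differed from the rest of its group. Its mean correlation was 0.982 with the LPS arrays, 0.950 with the curcumin arrays and 0.944 with the other arrays of its own group, whereas replicates 2 and 3 each correlated at 0.984 or 0.985 with the curcumin arrays and at 0.940 and 0.922 with the LPS arrays. Outlier marks lay on 1594 spots of LPS+curcumin replicate 2, and the other arrays had no more than 163. Interactions are therefore given with all 12 arrays and with the 11 arrays that remain without LPS+curcumin replicate 1, or with the fit named where 1 is shown. Each replicate number is 1 slide with 1 array of each group, so the interaction can also be read within slides 1, 2 and 3. The groups always occupied the same position on the slide, and group and position cannot be told apart.

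With 12 arrays 137 genes had a called interaction below 0 and 4 above 0 (limma, adjusted p below 0.05), which is 0.709% and 0.0207% of the genes tested. With 11 arrays 395 genes were lower and 42 higher, or 2.04% and 0.217%. All 141 calls of the 12-array fit were also called with 11 arrays. With the slide as a block the counts were 214 lower and 15 higher for 12 arrays, and 518 and 93 for 11 arrays. Among the measured genes 71 were lower (0.454%) and 2 higher (0.0128%) with 12 arrays, and 248 lower (1.58%) and 23 higher (0.147%) with 11. The median interaction over all genes tested was -0.08 with 12 arrays and 0.05 with 11.

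Calls depended on single libraries. Without LPS+curcumin replicate 3 the 12-array count rose to 221. It dropped to 90 when untreated replicate 2 was left out and to 80 for untreated replicate 3, to 92 and 79 for curcumin replicates 2 and 3, and to 80 and 88 for LPS replicates 1 and 2. Without all 4 arrays of slide 2, 0 genes were called by limma with 8 arrays (561 at an unadjusted p below 0.05), and 114 without slide 2 and LPS+curcumin replicate 1. Spike-in scaling moved the median of all genes from -0.08 to 0.30 with 12 arrays and left 55 calls. The split between lower and higher calls moved as well. It was 814 lower and 264 higher with array weights on the 12 arrays, and 436 lower and 124 higher when LPS+curcumin replicate 3 was also left out of the 11. On all 5 scalings 47 lower calls and 1 higher call held with 12 arrays, and 304 lower and 7 higher with 11.

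**Figure D1:**
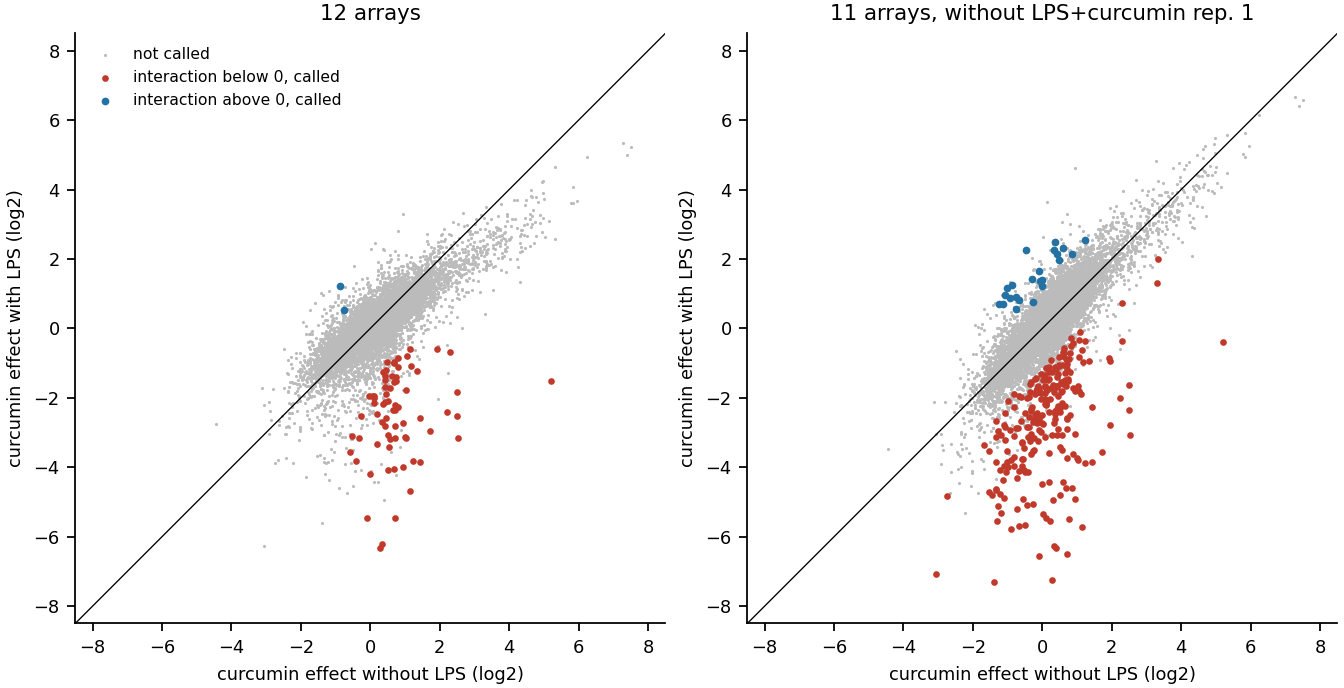
Effect of curcumin with LPS (vertical axis, log2) against its effect without LPS (horizontal axis, log2) for the 15654 measured genes, with 12 arrays on the left and 11 on the right. The line marks an interaction of 0. Red points are the 71 and 248 genes called below it and blue points the 2 and 23 called above it.

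Across the 15654 measured genes the effect of curcumin with LPS correlated with its effect without LPS at r = 0.780 for the group means of 12 arrays and 0.814 for those of 11. These comparisons share no array, and genes are not independent replicates. Within slides the correlation was 0.245 on slide 1, which holds LPS+curcumin replicate 1, 0.759 on slide 2 and 0.854 on slide 3. The interactions themselves correlated across genes at 0.599 between slides 2 and 3, 0.366 between slides 1 and 2, and 0.214 between slides 1 and 3.

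The 71 measured genes called lower with 12 arrays were below 0 on each of the 3 slides, with medians of -2.52, -3.35 and -3.00 and interactions from -6.72 to -1.44. These slides are the arrays that gave the calls, so the agreement is no separate test. LPS alone raised the median of the 71 by 3.06, curcumin alone moved it by 0.65, and with LPS present curcumin moved it by -2.36. In cells given curcumin, LPS moved their median by 0.07. For the 248 genes called lower with 11 arrays these medians were 2.63, 0.10, -2.45 and 0.05 in the same order, and 232 of them were below 0 on each slide. LPS+curcumin replicate 1 lay above both other arrays of its group in 205 of the 248. The 248 were called without that array, which favours genes that are low on both other arrays. The count is therefore no separate test, and no share over all measured genes was taken. The array signal does not tell fewer responding cells from less RNA in every cell.

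Interferon-stimulated genes made up the list with the lowest interaction of the 24 lists examined. Of 42 genes listed, 39 were tested and 33 measured. Among the 33, 8 were called lower with 12 arrays and 29 with 11, against 0.454% and 1.58% of measured genes, and 0 were higher. With 12 arrays 1 of them was called on all 5 scalings, and the count ran from 0 without slide 2 to 31 with array weights (13 with the slide as a block). With 11 arrays 29 were called on all 5 scalings, and the count ran from 17 with normexp correction to 32 with the slide as a block. Their median interaction was -3.93 with 11 arrays and -3.02 with 12, and -1.43, -4.05 and -3.77 within slides 1, 2 and 3, while the median over all measured genes was 0.06 with 11 arrays and -0.07 with 12. With 11 arrays LPS moved the list's median by 4.6 without curcumin and by 0.32 with it. Curcumin moved it by -0.27 without LPS and by -4.38 with LPS.

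Zbp1, a sensor of Z-form nucleic acid that triggers cell death, had levels of -6.15, -5.96 and -6.14 in untreated cells and -5.78, -5.91 and -5.69 with curcumin, on the log2 scale relative to the 75th percentile of the array. It stood at 2.17, 1.63 and 1.5 with LPS and at -2.73, -5.84 and -5.09 with LPS+curcumin. The LPS arrays lay above all other arrays, and replicates 2 and 3 with both agents lay near the curcumin arrays, with replicate 1 between. The interaction was -6.61 ± 0.84 (SE, 3 arrays per group, limma adjusted p = 0.0037) with 12 arrays and -7.53 ± 0.35 (adjusted p = 1.2e-06) with 11, and -5.27, -7.53 and -7.04 within the slides.

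Irf7, the transcription factor that amplifies interferon production, followed the same order. Its levels were -1.78, -1.83 and -1.87 untreated, -1.30, -1.32 and -1.35 with curcumin, 3.56, 3.07 and 3.43 with LPS, and 0.71, -1.60 and -1.32 with both. With both agents replicates 2 and 3 overlapped or fell below the curcumin arrays, and replicate 1 did not reach the LPS arrays. The interaction was -4.59 ± 0.66 (limma adjusted p = 0.00804) with 12 arrays and -5.32 ± 0.25 (adjusted p = 1.27e-06) with 11.

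Curcumin alone raised Irf7 by 0.51 (limma adjusted p = 0.0281 with 11 arrays and 0.397 with 12) and Isg20, an exonuclease that degrades viral RNA, by 2.52 (adjusted p = 7.17e-06 and 0.000258). The median change with curcumin alone over all measured genes was 0.36. Isg20 measured -2.71, -3.04 and -2.97 untreated, -0.62, -0.45 and -0.09 with curcumin, 2.91, 3.01 and 2.67 with LPS, and -0.48, -0.58 and 0.16 with both. All 3 LPS+curcumin arrays, replicate 1 among them, lay at the level of curcumin alone. The interaction of -5.69 ± 0.33 had the smallest adjusted p of the measured named genes with 12 arrays (limma, 4.85e-05), it was -5.60 ± 0.34 with 11 (adjusted p = 5.98e-06), and slides 1, 2 and 3 gave -5.49, -6.18 and -5.40.

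The guanylate-binding proteins Gbp5 and Gbp2, GTPases that act against pathogens inside cells and whose promoters are printed above, were high with LPS and low with both agents. Gbp5 read -6.31, -5.37 and -5.89 untreated, -5.08, -4.47 and -4.56 with curcumin, 2.25, 1.25 and 1.52 with LPS, and -0.93, -4.0 and -4.10 with both. Its interaction was -5.83 ± 0.99 with 12 arrays (limma adjusted p = 0.021) and -6.88 ± 0.45 with 11 (adjusted p = 9.73e-06). Gbp2 read -3.49, -3.47 and -3.64 untreated, -3.16, -3.09 and -3.21 with curcumin, 4.6, 4.14 and 4.3 with LPS, and 2.13, -1.51 and -2.43 with both. Replicate 1 with both agents lay over 3 log2 units above the other replicates. Gbp2 was called with 11 arrays (-6.70 ± 0.34, adjusted p = 2.52e-06) and not with 12 (-5.33 ± 1.21, adjusted p = 0.0973).

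Isg15, a ubiquitin-like modifier, kept a response to LPS under curcumin. Its levels were -0.86, -1.02 and -0.79 untreated, -0.89, -0.94 and -0.64 with curcumin, 6.26, 5.69 and 5.78 with LPS, and 4.90, 2.71 and 2.84 with both. The arrays with both agents lay above every curcumin array and below every LPS array. LPS raised it by 6.79 without curcumin and, with 11 arrays, by 3.60 with it. The interaction was -3.20 ± 0.28 with 11 arrays (limma adjusted p = 7.5e-05) and -2.49 ± 0.66 with 12 (adjusted p = 0.181, and 0.113 with the slide as a block). Xaf1, a pro-apoptotic interferon target (-5.25 ± 0.24, adjusted p = 1.2e-06), and Cmpk2, a mitochondrial nucleotide kinase (-5.92 ± 0.58, adjusted p = 0.000176), were also called with 11 arrays. With 12 arrays they stood at -4.24 (adjusted p = 0.0663, and 0.0468 with the slide as a block) and -4.21 (adjusted p = 0.516, and 0.366 with the slide as a block).

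**Figure D2:**
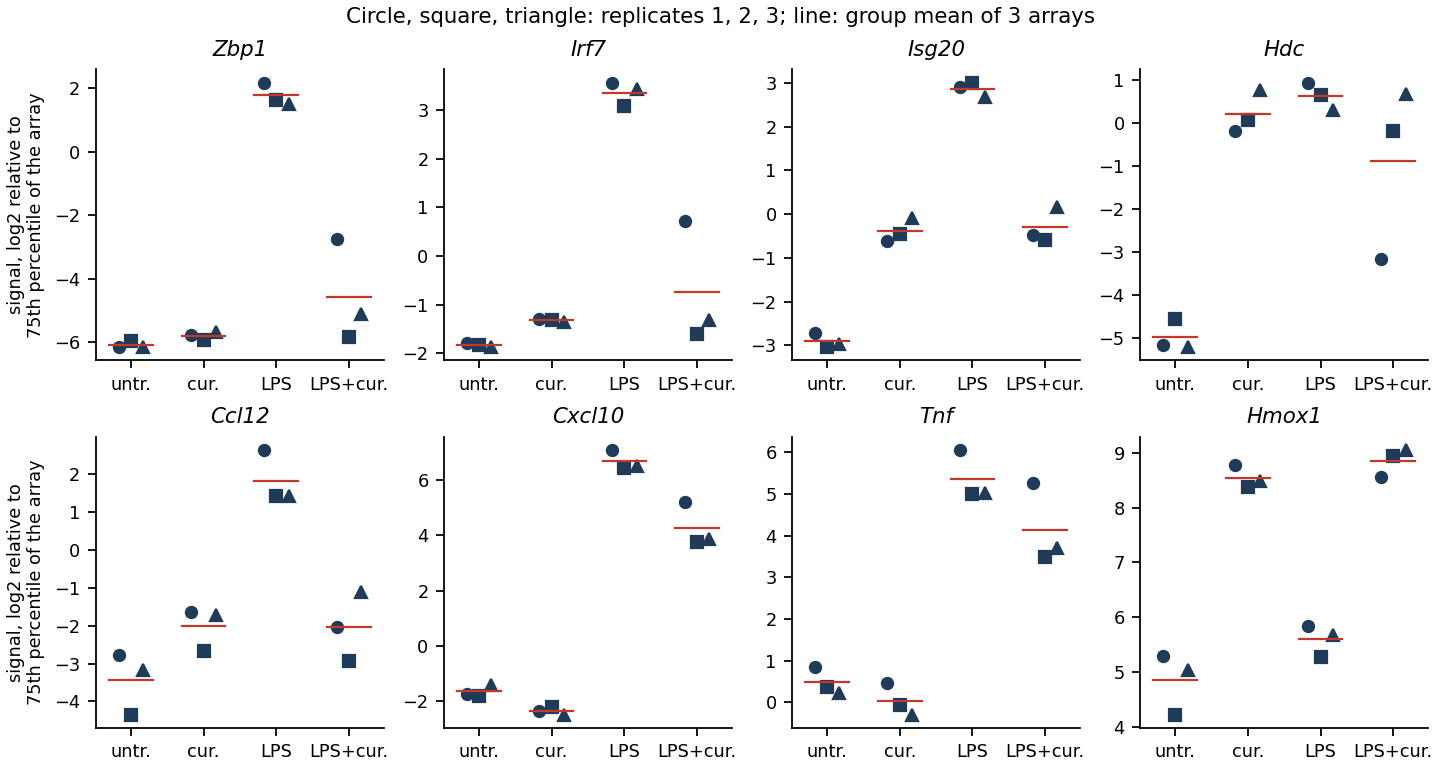
Level of 8 genes on each of the 12 arrays (vertical axis, log2 signal relative to the 75th percentile of the array) by treatment group (horizontal axis), with circles, squares and triangles for replicates 1, 2 and 3 and a line at the mean of 3 arrays. In Zbp1, Irf7 and Cxcl10 the circle for LPS+curcumin lies above the other 2 arrays of its group, in Isg20 and Ccl12 it does not, and in Hdc it lies below them.

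Chemokine genes fell into a set with a called interaction and a set without. Of 20 listed, 15 were tested and 12 measured, of which 1 was called lower with 12 arrays and 6 with 11 (0.454% and 1.58% over all measured genes, and 2 and 6 with the slide as a block), with a median of -1.99 and -2.05. Under normexp correction 0 of the 12 were called lower in either fit. Ccl12, a ligand of the monocyte receptor CCR2, measured -2.77, -4.35 and -3.18 untreated, -1.65, -2.68 and -1.72 with curcumin, 2.65, 1.42 and 1.44 with LPS, and -2.02, -2.93 and -1.12 with both. The arrays with both agents overlapped those with curcumin alone, and no array with LPS alone overlapped any other group. The interaction was -5.28 ± 0.77 with 12 arrays (limma adjusted p = 0.00887) and -5.28 ± 0.83 with 11 (adjusted p = 0.00513). Quantile scaling ended the 12-array call.

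Ccl7 and Ccl2, further CCR2 ligands, were below the untreated level with curcumin alone and rose with LPS. Ccl7 measured -1.03, -2.09 and -1.47 untreated, -3.92, -5.15 and -4.74 with curcumin, 5.07, 4.09 and 4.09 with LPS, and -0.20, -1.68 and -3.65 with both. With 11 arrays its curcumin effect was -3.07 without LPS and -7.08 with it, an interaction of -4.01 ± 0.77 (limma adjusted p = 0.0181, and 0.318 with 12 arrays). Ccl2 measured 4.75, 3.79 and 4.45 untreated, 3.29, 2.70 and 3.85 with curcumin, 8.51, 8.15 and 8.01 with LPS, and 5.81, 3.27 and 4.92 with both. Its interaction was -3.08 ± 0.64 with 11 arrays (adjusted p = 0.0307, and 0.303 with 12), and the call held in 4 of 11 fits that each left out 1 further array.

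Cxcl10, the interferon-inducible ligand of CXCR3, and Ccl5, a chemokine that attracts T cells and monocytes, still rose with LPS under curcumin, but less than without it. Cxcl10 measured -1.73, -1.82 and -1.40 untreated, -2.35, -2.22 and -2.49 with curcumin, 7.10, 6.43 and 6.52 with LPS, and 5.20, 3.75 and 3.86 with both. Its LPS effect was 8.33 without curcumin and 6.16 with it (11 arrays), an interaction of -2.18 ± 0.31 (limma adjusted p = 0.00245, and 0.245 with 12 arrays). Ccl5 measured 0.71, 0.50 and 0.18 untreated, 0.94, 0.64 and 0.69 with curcumin, 7.96, 7.75 and 7.45 with LPS, and 7.61, 5.94 and 6.22 with both. Its interaction was -1.93 ± 0.30 with 11 arrays (adjusted p = 0.00474, and 0.513 with 12).

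Among inflammatory cytokines and growth factors 18 of 23 listed genes were tested and 9 measured. Of the 9, 2 were called lower with 12 arrays and with 11 (3 and 4 with the slide as a block), beside 0.454% and 1.58% of measured genes. Normexp correction left 0 of the 9 with 12 arrays and 1 with 11. Over all 18, which include 4 genes at background in a group, 5 and 9 were called, beside 0.709% and 2.04% of genes tested and 4.36% and 8.47% of those at background. Il1rn, the secreted antagonist of the interleukin 1 receptor, measured -1.73, -1.60 and -0.77 untreated, -1.15, -0.79 and 0.66 with curcumin, 3.18, 3.03 and 3.15 with LPS, and 1.01, -0.44 and 0.59 with both. The LPS arrays lay at least 2 log2 units above every array with both agents. Its interaction was -3.67 ± 0.68 with 12 arrays (limma adjusted p = 0.0366) and -3.98 ± 0.67 with 11 (adjusted p = 0.00851). Ebi3, a subunit of interleukins 27 and 35, measured -1.90, -1.71 and -1.96 untreated, -1.59, -1.49 and -0.93 with curcumin, 1.02, 1.2 and 0.46 with LPS, and -0.54, -1.88 and -1.17 with both. Its interaction was -2.61 ± 0.47 with 12 arrays (adjusted p = 0.0325) and -2.94 ± 0.39 with 11 (adjusted p = 0.00177).

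Tnf, the early cytokine released within the first hours of LPS exposure, had no called interaction. It measured 0.85, 0.37 and 0.23 untreated, 0.47, -0.05 and -0.29 with curcumin, 6.06, 5.01 and 5.02 with LPS, and 5.28, 3.48 and 3.69 with both. Replicate 1 with both agents overlapped the LPS arrays and the other replicates did not. The interaction was -0.77 ± 0.65 with 12 arrays (limma adjusted p = 0.9999) and -1.34 ± 0.46 with 11 (adjusted p = 0.256), and -0.41, -1.11 and -0.81 within the slides.

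Il6 and Il1b, the cytokines of the acute phase and of fever, were near background without LPS. They belong to the 2449 genes between the measured and the background class, of which 0.531% were called lower with 12 arrays and 1.8% with 11. Il6 measured 4.78, 4.05 and 3.72 with LPS and 0.86, -2.76 and -3.95 with both, and lay between -6.48 and -5.88 on the 6 arrays without LPS, with 1 of 3 curcumin arrays above background. Il1b measured 5.45, 5.04 and 3.93 with LPS and -0.05, -3.42 and -3.45 with both, against -7.02 to -4.35 without LPS and again 1 of 3 curcumin arrays above background. In both genes the arrays with both agents lay between the LPS arrays and those without LPS. With 11 arrays both were called (-7.50 ± 0.51, limma adjusted p = 1.07e-05, and -6.87 ± 0.69, adjusted p = 0.000227). Their level with curcumin alone is partly fitted against background, so these sizes are not exact. With 12 arrays the adjusted p was 0.0664 for Il6 and 0.055 for Il1b (0.0615 and 0.00774 with the slide as a block).

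Inflammatory enzymes included the lowest interaction of all measured named genes with 12 arrays. Of 18 listed, 17 were tested and 9 measured, with 2 called lower with 12 arrays and 4 with 11 (3 and 5 with the slide as a block, and 0.454% and 1.58% over measured genes) and a median of -1.91 and -2.12. After normexp correction 0 of the 9 were called lower with 12 arrays and 1 with 11. Hdc, which makes histamine from histidine, measured -5.16, -4.57 and -5.22 untreated, -0.18, 0.06 and 0.76 with curcumin, 0.94, 0.66 and 0.31 with LPS, and -3.16, -0.20 and 0.68 with both. Each agent alone raised it by more than 5 log2 units, and with both agents it lay at the level of either agent alone on replicates 2 and 3 and lower on replicate 1. The interaction was -6.72 ± 1.06 with 12 arrays (limma adjusted p = 0.014) and -5.59 ± 0.47 with 11 (adjusted p = 6.36e-05), and -9.08, -5.49 and -5.61 within the slides. Here LPS+curcumin replicate 1 made the 12-array value lower, the reverse of its position in the interferon-stimulated genes above.

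Mmp13, a collagenase, measured -4.37, -5.60 and -4.97 untreated, -3.29, -3.51 and -3.00 with curcumin, 1.24, 0.27 and -0.36 with LPS, and -1.37, -3.43 and -2.94 with both. Its interaction was -4.67 ± 0.76 with 12 arrays (limma adjusted p = 0.0167) and -5.28 ± 0.60 with 11 (adjusted p = 0.000554). Ptgs2, the inducible cyclooxygenase that makes prostaglandins, measured -4.34, -4.29 and -3.99 untreated, -5.42, -4.98 and -5.54 with curcumin, 2.21, 1.90 and 1.04 with LPS, and 0.17, -2.82 and -3.54 with both. All 3 arrays with both agents lay above all arrays without LPS. The interaction was -3.79 ± 0.46 with 11 arrays (adjusted p = 0.000858) and -2.68 ± 1.05 with 12 (adjusted p = 0.583). Cybb, the catalytic subunit of the phagocyte NADPH oxidase, was at -2.36 ± 0.34 with 11 arrays (adjusted p = 0.00265) and -2.02 ± 0.44 with 12 (adjusted p = 0.0754, and 0.0203 with the slide as a block).

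Of 13 measured NF-kB subunits and feedback genes 0 were called with 12 arrays and 2 lower with 11 (0.454% and 1.58% over measured genes, and 0 and 4 with the slide as a block), and the 11-array median was -1.05. Traf1, an adaptor of TNF receptors, measured -4.61, -5.00 and -5.16 untreated, -4.05, -4.19 and -3.96 with curcumin, 5.07, 4.79 and 4.06 with LPS, and 3.58, 0.27 and -0.16 with both. Every array with both agents lay above every curcumin array, and LPS still raised it by 4.12 with curcumin (11 arrays). Its interaction was -5.44 ± 0.39 with 11 arrays (limma adjusted p = 1.79e-05, and 0.146 with 12). Nfkbiz, an atypical IkB protein needed for secondary response genes, was at -1.60 ± 0.29 with 11 arrays (adjusted p = 0.0132, and 0.568 with 12), a call that ended on quantile and spike-in scaling. Under normexp correction 1 of the 13 was called lower with 11 arrays. The subunit Rela and the inhibitor Nfkbia, named here after their values were seen, stood at -0.30 and -0.28 with 11 arrays (adjusted p = 0.856 and 0.949).

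Of 18 measured Toll-like receptors and adaptors 0 were called with 12 arrays and 1 lower with 11 (0 and 2 with the slide as a block), beside 0.454% and 1.58% of measured genes. The 1 was Irak3, a decoy kinase that restrains the pathway (-2.53 ± 0.35, limma adjusted p = 0.00236, and 0.617 with 12 arrays). Normexp correction left 0 of the 18 called lower in either fit. Tlr4, the LPS receptor, measured 0.33, 0.14 and -0.10 untreated, -1.77, -1.92 and -2.70 with curcumin, -1.18, -0.68 and -0.63 with LPS, and -1.07, -1.91 and -2.97 with both. The effect of curcumin on it was -2.25 without LPS and -1.61 with LPS (11 arrays), and the interaction of 0.65 ± 0.48 was not called (adjusted p = 0.77), nor was that of 1.1 ± 0.60 with 12 (adjusted p = 0.923). Tlr2, the receptor of bacterial lipoproteins, measured 4.25, 3.45 and 3.10 untreated, 2.17, 1.23 and 0.40 with curcumin, 6.80, 6.13 and 5.73 with LPS, and 5.68, 2.59 and 1.89 with both. Its interaction was -1.65 ± 0.68 with 11 arrays (adjusted p = 0.382, and 0.0251 with the slide as a block) and -0.50 ± 1.17 with 12 (adjusted p = 0.9999). Irf8, a lineage factor of microglia, fell with curcumin with and without LPS (-2.25 and -1.74), with an interaction of -0.51 ± 0.29 with 11 arrays (adjusted p = 0.627) and -0.19 ± 0.39 with 12 (adjusted p = 0.9999). The 12-array value of Irf8 was above 0 on quantile and spike-in scaling (0.047 and 0.19), and that of Tlr2 was 0.24 without LPS+curcumin replicate 3.

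Antigen presentation genes included 12 that were measured, of which 0 were called with 12 arrays and 3 lower with 11 (2 and 3 with the slide as a block), beside 0.454% and 1.58% of measured genes. Tap1 and Tap2, the subunits of the peptide transporter into the endoplasmic reticulum, and its partner Tapbp were the 3. With 11 arrays their interactions were -2.94 ± 0.35 (limma adjusted p = 0.000759), -1.43 ± 0.26 (adjusted p = 0.0137) and -1.40 ± 0.32 (adjusted p = 0.0478). With 12 arrays the adjusted p was 0.111, 0.185 and 0.151, and with the slide as a block 0.043, 0.0555 and 0.043. Tap1 measured -0.28, -0.16 and -0.38 untreated, -0.06, -0.53 and -0.36 with curcumin, 2.48, 1.58 and 2.18 with LPS, and 0.68, -1.03 and -0.78 with both. Replicates 2 and 3 with both agents were below every untreated array. The Tap2 call ended on spike-in scaling, and the Tapbp call ended on median and spike-in scaling and held in 3 of 11 fits that each left out 1 further array. After normexp correction 0 of the 12 were called lower in either fit.

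Further secreted and signalling genes outside the lists were among the lowest interactions. Batf2, an AP-1 family factor of activated macrophages, measured -6.19, -6.50 and -6.81 untreated, -6.11, -5.61 and -5.61 with curcumin, 1.99, 0.66 and 0.72 with LPS, and -2.23, -5.45 and -5.32 with both. Its interaction was -6.18 ± 1.01 with 12 arrays (limma adjusted p = 0.0169) and -7.23 ± 0.50 with 11 (adjusted p = 1.27e-05). Apol9b, an apolipoprotein L whose promoter is printed above, measured -3.44, -3.35 and -3.30 untreated, -3.74, -3.25 and -3.38 with curcumin, 4.06, 3.91 and 3.58 with LPS, and 0.61, -2.70 and -2.71 with both. Its interaction was -5.36 ± 0.98 with 12 arrays (adjusted p = 0.0345) and -6.46 ± 0.27 with 11 (adjusted p = 8.47e-07).

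The acute phase proteins Saa1 and Saa3 stayed above their unstimulated level with both agents on each array. Saa1 measured -0.94, -1.16 and -1.15 untreated, -0.22, -0.13 and -0.08 with curcumin, 5.74, 5.89 and 4.96 with LPS, and 3.41, 0.56 and 0.69 with both, with an interaction of -4.91 ± 0.86 with 12 arrays (limma adjusted p = 0.0251) and -5.84 ± 0.34 with 11 (adjusted p = 4.9e-06). Saa3 measured 0.94, -0.20 and -0.27 untreated, 1.35, 0.77 and 0.63 with curcumin, 7.46, 7.33 and 6.36 with LPS, and 5.40, 1.44 and 1.67 with both. Its interaction was -6.25 ± 0.56 with 11 arrays (adjusted p = 9.63e-05) and -4.97 ± 1.21 with 12 (adjusted p = 0.134, and 0.0386 with the slide as a block).

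Wnt10a, a secreted Wnt ligand, and Il4i1, a secreted amino acid oxidase, resembled Isg20 in that curcumin alone raised them and LPS+curcumin replicate 1 sat with its group. Wnt10a measured -5.91, -5.07 and -6.24 untreated, -4.83, -4.50 and -4.21 with curcumin, -0.53, 0.01 and -1.31 with LPS, and -4.38, -4.79 and -4.16 with both, an interaction of -5.06 ± 0.53 with 12 arrays (limma adjusted p = 0.00112) and -5.09 ± 0.56 with 11 (adjusted p = 0.000452). Il4i1 measured -3.35, -3.45 and -3.84 untreated, -1.28, -1.09 and -0.79 with curcumin, 2.18, 1.72 and -0.06 with LPS, and -1.57, -1.33 and -0.83 with both, an interaction of -5.02 ± 0.67 with 12 arrays (adjusted p = 0.00471) and -4.86 ± 0.69 with 11 (adjusted p = 0.00272). In both genes the levels with both agents overlapped those with curcumin alone and lay below those with LPS alone.

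Of the immediate early and feedback genes 26 were measured, and 0 were called with 12 arrays and 2 lower with 11 (0 and 4 with the slide as a block), beside 0.454% and 1.58% of measured genes. Socs3, an inhibitor of cytokine receptor signalling, was at -3.17 ± 0.46 (11 arrays, limma adjusted p = 0.0028, and 0.296 with 12). Phlda1, which each agent alone raised, was at -2.89 ± 0.45 (adjusted p = 0.00481, and 0.117 with 12). Fas, the death receptor and 1 of 17 measured p53 targets, was the only one of that list called, at -4.73 ± 0.61 with 11 arrays (adjusted p = 0.00128) and -3.99 ± 0.85 with 12 (adjusted p = 0.0679, and 0.0106 with the slide as a block). Fas measured -3.48, -5.00 and -4.85 untreated, -2.49, -2.62 and -2.34 with curcumin, 2.26, 1.27 and 1.01 with LPS, and 0.95, -1.12 and -1.39 with both. Normexp correction left 0 of the 26 immediate early and feedback genes and 0 of the 17 p53 targets called lower in either fit.

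**Figure D3:**
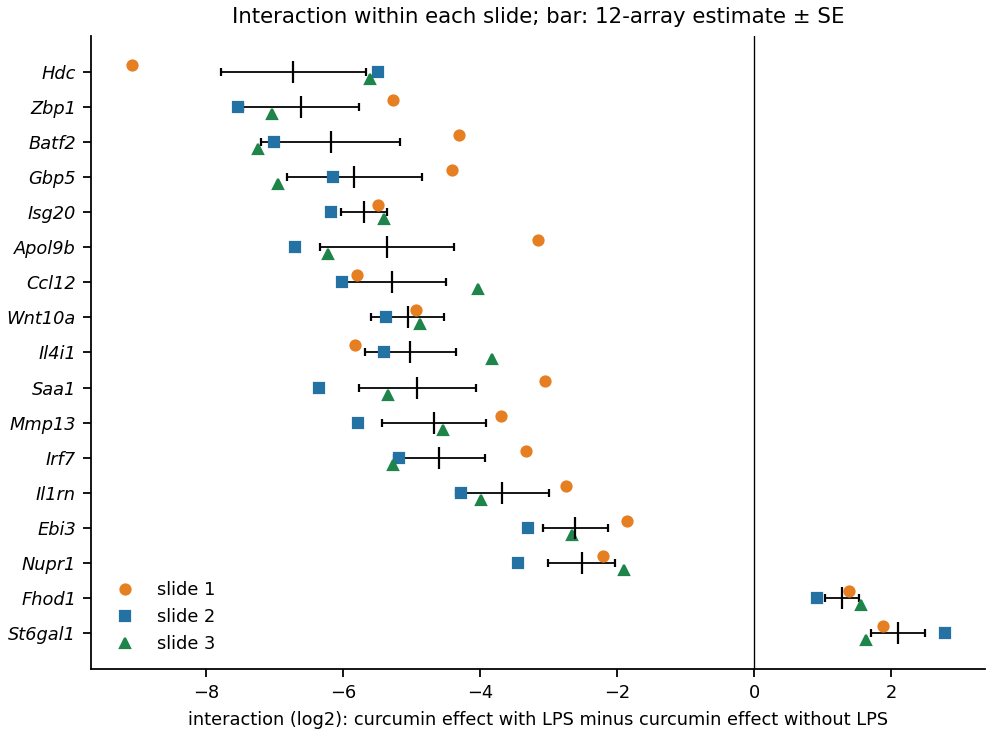
Interaction (horizontal axis, log2) of the 17 measured named genes called with 12 arrays, as the value within slide 1, 2 and 3 (circles, squares, triangles) and as the 12-array estimate with its SE (bar). Each gene has the same sign on all 3 slides, from -9.08 for Hdc on slide 1 to 2.78 for St6gal1 on slide 2. The naming rule required this of genes named as lowest or highest of the 12-array fit. The slide values come from the same arrays as the fit.

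Of these 17 calls, 6 (Zbp1, Isg20, Ccl12, Wnt10a, Il4i1 and Irf7) held whichever of the 12 arrays was left out. The others held in 9 of 12 such fits for Hdc, 7 for Batf2 and Mmp13, 5 for Gbp5, 4 for Ebi3 and St6gal1, 3 for Saa1 and Il1rn, 2 for Fhod1 and Nupr1, and 1 for Apol9b. On all 5 scalings Hdc, Isg20, Wnt10a and Il4i1 were called. With 11 arrays each of the lower named genes among them was called on all 5 scalings and in all 11 fits that left out 1 further array.

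Interactions above 0 were fewer and smaller. The 2 measured genes called with 12 arrays were St6gal1, which adds sialic acid to glycoproteins, and Fhod1, an actin-organising formin. St6gal1 measured 0.41, 0.86 and 0.28 untreated, 0.03, -0.34 and -0.76 with curcumin, -2.76, -2.59 and -1.96 with LPS, and -1.25, -1.01 and -1.38 with both. LPS lowered it on every array, and with both agents it lay between LPS and curcumin alone. Its interaction was 2.10 ± 0.39 with 12 arrays (limma adjusted p = 0.0368) and 2.12 ± 0.41 with 11 (adjusted p = 0.0195). Fhod1 measured 3.32, 3.05 and 3.19 untreated, 2.60, 2.41 and 2.30 with curcumin, 1.57, 1.94 and 1.77 with LPS, and 2.24, 2.22 and 2.43 with both. Its interaction was 1.29 ± 0.25 with 12 arrays (adjusted p = 0.0452), a call that the block on slide ended (adjusted p = 0.0505), and 1.32 ± 0.25 with 11 (adjusted p = 0.0176). On the 5 scalings 0 of the measured higher calls held throughout.

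With 11 arrays the 23 measured higher genes had a median of 1.73, and LPS alone moved their median by -1.80. Their number was 6 without untreated replicate 2 or LPS replicate 1, 71 without LPS+curcumin replicate 3, and 1 with array weights. Slc26a11, an anion transporter of lysosomes, had the smallest adjusted p among the named ones. It measured 1.60, 0.92 and 0.90 untreated, 1.79, 1.5 and 1.19 with curcumin, -1.52, -1.25 and -0.92 with LPS, and 0.60, 1.32 and 1.22 with both, with an interaction of 2.14 ± 0.37 (limma adjusted p = 0.00954, and 0.0632 with 12 arrays). All arrays with both agents lay above all LPS arrays, and the slides gave 1.92, 1.99 and 1.85. Scel (2.72), Dgkg (2.17), Klhl30 (2.02), Cytip (1.95), Mmel1 (1.92), the lysosomal sulfatase gene Sgsh (1.82), the PI3K inhibitor gene Pik3ip1 (1.75) and Tesk2 (1.75) completed the named genes, with adjusted p from 0.013 for Klhl30 to 0.0429 for Mmel1. With 12 arrays 0 of these 8 were called, with adjusted p from 0.0522 for Sgsh (0.0459 with the slide as a block) to 0.9999 for Mmel1. Of 11 fits that each left out 1 further array, Mmel1 was called in 1, Cytip and Sgsh in 3, Dgkg in 4, Scel and Pik3ip1 in 8, and Klhl30 and Tesk2 in 11.

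Genes at background in 1 or more groups made up 53 of the 137 lower calls with 12 arrays and 103 of the 395 with 11, or 4.36% and 8.47% of the 1216 genes of that class, and 2 and 15 of the higher ones (0.164% and 1.23%). A gene of this class was tested only because another group was well above background on all 3 arrays. Differences between groups are therefore partly built into these shares. Csf3, the granulocyte growth factor G-CSF, was not well above background in untreated cells (-8.81, -9.38 and -9.63). It measured -4.43, -4.02 and -3.99 with curcumin, 3.82, 3.18 and 2.80 with LPS, and -0.82, -4.37 and -3.71 with both. Against the untreated cells LPS was at least 1617-fold higher and curcumin at least 9.49-fold higher. With both agents replicate 2 lay within the range of the curcumin arrays, replicate 3 slightly above it and replicate 1 between curcumin and LPS.

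Nos2, the inducible nitric oxide synthase, was above background on all 3 LPS arrays (-1.42, -2.25 and -2.41), on 0 of 3 untreated and 0 of 3 curcumin arrays, and with both agents on replicate 1 alone (-5.36). LPS was at least 41.3-fold higher than untreated. The iron-binding lipocalin gene Lcn2 (0.68, 0.51 and -0.40 with LPS) and the interferon-inducible GTPase gene Iigp1 (0.23, -0.14 and -0.08 with LPS) showed the same detection pattern, with replicate 1 at -2.83 and -4.24 and replicates 2 and 3 not well above background with both agents. LPS was at least 202-fold and 168-fold higher than untreated for these genes.

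Cd247, the zeta chain of the T cell receptor complex and also an adaptor of Fc receptors, was not well above background in untreated cells and was raised by each agent. It measured -1.24, -1.87 and -1.54 with curcumin, -0.95, -0.89 and -2.71 with LPS, and -3.51, -3.06 and -2.93 with both, so each array with both agents lay below each array with either agent alone. Against untreated cells curcumin was at least 57.5-fold and LPS at least 58.9-fold higher. Of 10 T and B cell markers 6, 6, 5 and 6 were above background on all 3 arrays of the untreated, curcumin, LPS and LPS+curcumin groups. Cd3d, Cd8a and Ms4a1 were not above background in any of the 4 groups. Zfp811, a zinc finger gene, measured -4.40, -4.34 and -4.11 with curcumin, -0.93, -1.10 and -2.01 with LPS, and -2.58, -4.45 and -5.04 with both, and was not well above background untreated.

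The named genes of this class on the higher side were above background in untreated cells and not with LPS. Rtn4rl1, a Nogo receptor homologue, fell from -2.86, -3.39 and -4.28 untreated to below the detection limit with LPS, a difference of at least 12.8-fold, and 1 spot with both agents was dropped. Abca6, a lipid transporter, measured -5.01, -4.88 and -5.89 untreated, -3.92, -4.0 and -4.04 with curcumin and -5.44, -4.26 and -4.09 with both. It was at least 6.02-fold higher with both agents than with LPS alone. Strip2 was at least 3.60-fold, Lbh at least 5.83-fold and Galnt9 at least 1.71-fold higher in untreated than in LPS-treated cells. Galnt9 was not well above background with curcumin alone either, and untreated cells were at least 1.08-fold higher. Its signal had no room to show a further fall with both agents.

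**Figure D4:**
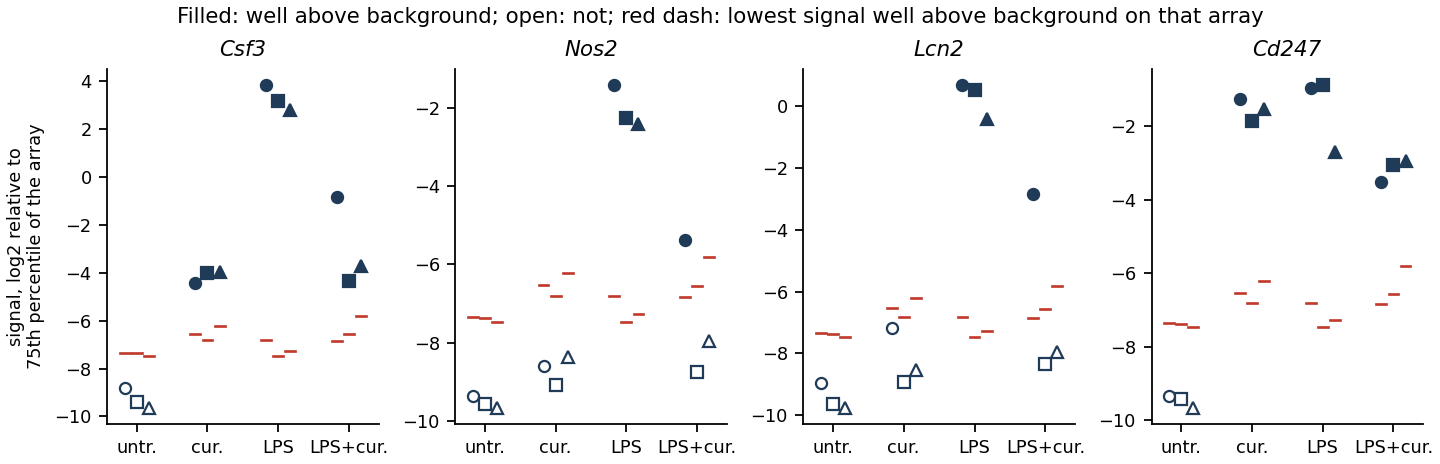
Level of Csf3, Nos2, Lcn2 and Cd247 on each array (vertical axis, log2 signal relative to the 75th percentile of the array) by group (horizontal axis), filled where the probe was well above background and open where it was not, with red dashes at the lowest signal well above background on that array. With LPS+curcumin, Nos2 and Lcn2 are filled on replicate 1 only, at -5.36 and -2.83.

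Of 28 measured NRF2 targets, the antioxidant genes, 0 were called in either fit, which is near the 0.454% and 1.58% of measured genes called lower. Curcumin moved their median by 0.74 without LPS and 0.89 with it (11 arrays), beside 0.36 and 0.41 for the median of all measured genes. Hmox1, haem oxygenase 1, measured 5.30, 4.23 and 5.04 untreated, 8.78, 8.37 and 8.49 with curcumin, 5.85, 5.28 and 5.68 with LPS, and 8.56, 8.95 and 9.05 with both. The 6 arrays with curcumin, LPS+curcumin replicate 1 included, lay above the 6 without. Curcumin raised it by 3.69 without LPS and 3.40 with LPS, and the interaction was -0.29 ± 0.40 with 11 arrays (limma adjusted p = 0.926) and -0.44 ± 0.40 with 12 (adjusted p = 0.9999). Nqo1, a quinone reductase, was raised by 1.42 and 1.22, with an interaction of -0.20 ± 0.61 with 11 arrays (adjusted p = 0.975) and 0.010 ± 0.60 with 12 (adjusted p = 0.9999).

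Of 24 measured genes of the ATF4 stress response 1 was called lower in both fits, beside 0.454% and 1.58% of measured genes, and with the slide as a block 3 were with 12 arrays and 4 with 11. Under normexp correction 0 were called lower in either fit. The 1 called in both main fits was Nupr1, a small stress-induced chromatin protein. It measured 1.98, 1.2 and 1.57 untreated, 3.50, 3.41 and 3.60 with curcumin, 4.94, 4.52 and 3.63 with LPS, and 4.25, 3.29 and 3.75 with both. Each agent alone raised it and the arrays with both agents overlapped those with either, an interaction of -2.52 ± 0.49 with 12 arrays (limma adjusted p = 0.0469) and -2.76 ± 0.47 with 11 (adjusted p = 0.00946). Trib3, a pseudokinase of this response, was raised by curcumin by 3.27 without LPS and 2.07 with it, and its interaction of -1.2 ± 0.46 was not called with 11 arrays (adjusted p = 0.33) but was once slide was a block (adjusted p = 0.0327). With 12 arrays it was -1.19 ± 0.44 (adjusted p = 0.513). Ddit3, the apoptosis-linked factor CHOP, stood at -1.63 ± 0.51 with 12 arrays (adjusted p = 0.327), with the spot on LPS+curcumin replicate 2 dropped. With 11 arrays it was -1.10, a value for which LPS+curcumin replicate 3 alone stood for its group. Atf3, a stress-induced repressor, stood at -0.31 ± 0.49 with 11 arrays and -0.51 ± 0.49 with 12 (adjusted p = 0.939 and 0.9999). Arg1, the arginase of alternatively activated macrophages, which was near background, stood at 0.37 ± 0.90 and 0.099 ± 0.87 (adjusted p = 0.968 and 0.9999). The signs for Hmox1, Nqo1, Atf3 and Arg1 each turned under at least 1 alternative setting, with none of these values called.

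Among 19 measured cytosolic heat shock proteins, 17 chaperones of the endoplasmic reticulum, 23 microglia and macrophage genes, 22 cholesterol and LXR genes, 20 glycolysis and hypoxia genes, 22 DNA replication genes and 24 G2/M genes, 0 were called in either fit, and with the slide as a block 1 microglia gene and 1 cholesterol gene were called lower with 11 arrays. Their 11-array medians were 0.09, 0.22, -0.06, 0.05, 0.01, 0.31 and 0.13 in this order, beside 0.06 for all measured genes, and each of these medians took both signs across the alternative settings. Missing a threshold does not show that curcumin acted alike: the median SE of an interaction was 0.34 with 11 arrays and 0.41 with 12.

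**Figure D5:**
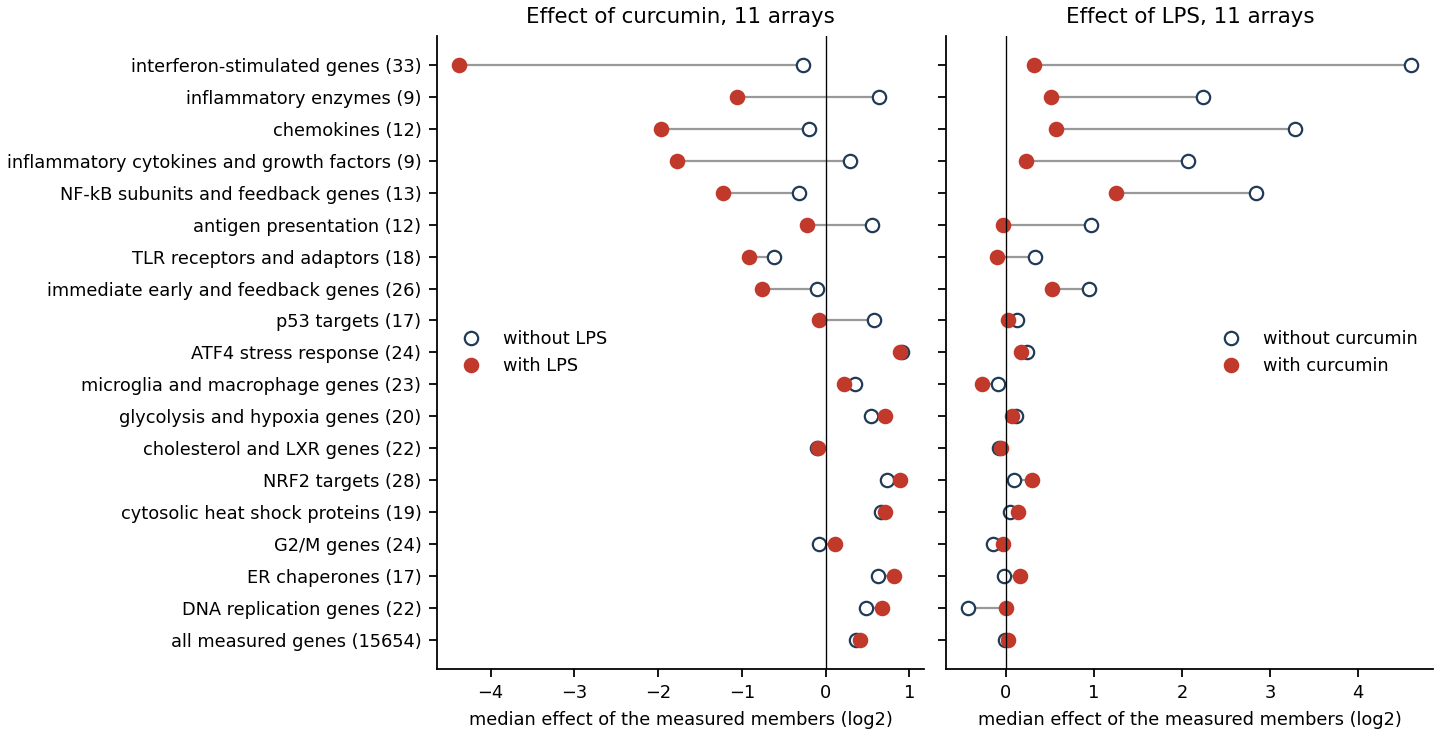
Median effect over the measured members of 18 gene lists and over all measured genes (number in brackets), for curcumin without and with LPS (left, log2) and for LPS without and with curcumin (right, log2), with 11 arrays. For interferon-stimulated genes the curcumin medians are -0.27 and -4.38 and the LPS medians 4.6 and 0.32, and for NRF2 targets the curcumin medians are 0.74 and 0.89.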

How the data were processed

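Expression was measured in 12 samples of BV-2 cells on one-colour arrays. Per the file headers, the deposited scanner files give linear spot intensities after background subtraction by Agilent Feature Extraction (version 10.5.1.1 there, 9.1 in the submitters' processing notes). The processed intensities that the authors deposited for the series matched these within 0.397%. An array has 45018 spots, 1639 of them controls, and 41174 distinct probes. Names came from RefSeq accessions (GRCm38.p6), which gave a symbol for 25097 probes. The other probes were tested and stay unnamed.

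The level of a spot is the log2 of the deposited processed signal minus the 75th percentile of non-control spots on its array. Outlier spots were left out, repeated spots were averaged by probe, and the probe with the highest mean signal stood for a gene. Testing required a signal well above background on all 3 arrays in 1 group or more. Of 4503 genes with more than 1 tested probe, 0 had probes called in opposite directions. Means of the 4 groups were fitted with lmFit and eBayes of limma (3.58.1, under R 4.3.3 with version 1.17.8 of data.table and 2.0.0 of jsonlite). Tests were two-sided, with Benjamini-Hochberg adjustment over the 19319 genes and a threshold of 0.05. The scripts were tested on simulated data. For a fold given as "at least", each array of the dim group entered with the lowest signal among its probes well above background, or with the gene's own signal where that was higher. The number of arrays limits the precision.

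The comparison, the gene lists and the rule for named genes were chosen with earlier results of these data known. Named were 18 genes always given, the 10 lowest and 10 highest called interactions of measured genes in the 12-array fit with the same sign on 3 slides, and likewise in the 11-array fit with the same sign on slides 2 and 3. Added to these were 5 lowest and 5 highest genes not above background in a group, and up to 4 called measured members per list. Names of predicted genes were left out. Alternatives were other scalings, other filters, the mean over probes, the slide as a block, array weights, and left-out arrays and slides. The normexp alternative (offset 50) used median spot signals in place of the mean signals that had been planned.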

Additional observations from a re-analysis of the deposited data

Results flagged for a closer look

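Results are listed here because the effect of curcumin differed between LPS-stimulated and resting cells by the test of that difference itself (limma, adjusted over all genes). This held for 141 genes with 12 arrays and 437 with 11. Groups of 3 arrays are too small for the outlier test on single values, which was not run.

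Among the measured named genes the 12-array interaction was -6.72 for the histamine-forming enzyme gene Hdc, -6.61 for Zbp1, -6.18 for Batf2, -5.83 for Gbp5, -5.69 for Isg20 and -5.36 for Apol9b. It was -5.28 for the chemokine gene Ccl12, -5.06 for Wnt10a, -5.02 for Il4i1, -4.91 for Saa1, -4.67 for Mmp13 and -4.59 for Irf7. The cytokine genes Il1rn and Ebi3 stood at -3.67 and -2.61 and the stress gene Nupr1 at -2.52. Above 0 were St6gal1 at 2.10 and Fhod1 at 1.29.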

How the results depend on the processing

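The counts of calls moved with several choices, and the cause was not tested. With quantile, median and spike-in scaling 72, 72 and 55 genes were called with 12 arrays (28, 22 and 15 of them measured), and with normexp background correction 2 (1 measured) and, with 11 arrays, 30 (27 measured). Testing only probes above background on 12 arrays left 73 and 287 calls, since fewer genes were tested, and no filter on dim probes left 47 measured calls with 12 arrays. Array weights gave 1078 and 784 measured with 12 arrays, and 247 and 151 with 11. Leaving out 1 array or 1 slide gave 0 to 437 calls with 12 arrays (0 to 271 measured) and 114 to 560 with 11 (54 to 364 measured). Within the 12-array fits the low end, 0 by limma with 561 at an unadjusted p below 0.05, came without slide 2 and the high end without LPS+curcumin replicate 1. Of the alternative counts 60 stayed within 1.5 times the reported one and 44 did not.

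With slide as replicate block the counts were 229 (136 measured) with 12 arrays and 611 (402 measured) with 11. Of the named genes without a 12-array call, the block called Lcn2, Il1b, Cybb, Saa3, Xaf1, Tap1, Tapbp, Fas and Sgsh. It left the others uncalled, among them Gbp2 (limma adjusted p = 0.072), Socs3 (0.073), Traf1 (0.0757), Ccl2 (0.0966), Cxcl10 (0.151), Ccl5 (0.206) and Ptgs2 (0.383). Deviations from the group mean correlated across genes at a median of 0.303 for arrays with the same replicate number (-0.00867 to 0.790 over 18 pairs). For different numbers the median was -0.267. Centring on group means pulls these values below 0 when those for the same number lie above it, so they are no separate observation. Where the interaction of a named gene was called, the normexp correction was the setting that turned its direction, in 7 values of genes on the higher side. It gave -0.064 for Rtn4rl1 and -0.88 for Galnt9 with 12 arrays, and -0.39 for Mmel1, -0.62 for Galnt9, -0.49 for Strip2, -0.29 for Lbh and -0.49 for Abca6 with 11. All of these but Mmel1 are fitted against background. A further 40 values of named genes changed sign with neither value called, under normexp, other scalings, array weights or left-out arrays. Of the rest 2954 kept direction and side of the threshold, 440 kept direction and lost the call and 113 kept direction and gained one. For genes dim in 1 group the signal over background, not the number of arrays, sets the lowest level that can be read.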

Other observations

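Some genes with a called interaction lay outside the rule for named genes and were chosen after their values were seen. The cytosolic RNA sensor genes Ddx58 and Dhx58 had interactions of -4.18 (limma adjusted p = 0.00738) and -3.58 (adjusted p = 0.00259) with 12 arrays, and the antiviral genes Oas1a and Bst2 of -2.15 (adjusted p = 0.0046) and -1.66 (adjusted p = 0.038). With 11 arrays the values were -4.80, -3.93, -2.20 and -1.73, so all 4 were called in both fits.

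Ciita, the master regulator of class II antigen presentation, and Ifnb1, interferon beta, counted as above background on only some arrays of a group. Where a group was dim, background limits the effects that involve it, so the sizes below are not exact. With 11 arrays the effect of curcumin on Ciita was 4.66 without LPS and 0.98 with it, and the effect of LPS 3.68 without curcumin and 0.00 with it, an interaction of -3.69 (limma adjusted p = 0.0144, and 0.044 with 12 arrays). For Ifnb1 the effect of curcumin was 2.99 without LPS and -1.79 with it, and that of LPS 5.94 and 1.16, an interaction of -4.78 (adjusted p = 0.0334, and 0.060 with 12 arrays). The interaction of Ifnb1 was -6.55 on slide 1.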
